A study of Mus musculus with 4 samples.

Results

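Nuclear-encoded members of the mitochondrial respiratory chain were followed through a γ-secretase inhibitor (GSI) washout in Beko cells. Members were the rows of the count table whose symbol begins with Nduf, Uqcr, Cox4 to Cox8 or Atp5, or reads Sdha, Sdhb, Sdhc, Sdhd or Cyc1. This rule, which used no measured value, found 93 of the 24391 genes. By role, 36 of them belong to complex I, 4 to complex II, 9 to complex III, 20 to complex IV and 15 to ATP synthase, and 9 are assembly and related factors. Ndufa4 and Ndufa4l2 were counted with complex IV, and Atp5s and Atp5sl with the assembly and related factors.

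Beko cells are a mouse leukemic progenitor T-cell line in which Notch signaling is constitutively active, and the GSI DAPT blocks the cleavage that releases the active Notch fragment. RNA-Seq compared 2 libraries made after 48 h in GSI with 2 libraries made after the same 48 h in GSI followed by a wash and another 24 h of culture, to follow what happens to gene expression when the block is lifted. The labels give the inhibitor at 10 mg/ml, a unit that differs from the µg/ml of the study's methods. By the study's methods, the old inhibitor was also washed away and renewed 24 h into the 48 h. All 4 libraries thus come from inhibitor-treated cells of a single line. No library of cells returned to inhibitor after the final wash was analysed here. The removal of GSI, the final wash and the longer culture therefore cannot be told apart. The labels do not say that the replicates are separate cultures, and p-values measure only the spread between these libraries.

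Oxidative phosphorylation runs on protein complexes of the inner mitochondrial membrane. Complex I (NADH dehydrogenase) and complex II (succinate dehydrogenase) pass electrons to coenzyme Q, complex III (the cytochrome bc1 complex) passes them on to cytochrome c, and complex IV (cytochrome c oxidase) hands them to oxygen, while ATP synthase uses the proton gradient that complexes I, III and IV build. Most subunits are encoded in the nucleus and imported, and a few catalytic ones are encoded by mitochondrial DNA. The nuclear genes are known to be regulated by factors that include NRF1, GABPA and ESRRA with coactivators of the PGC-1 family, and MYC is known to raise mitochondrial gene expression in growing lymphocytes.

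Between 13716199 and 36364200 reads were counted per library, replicate 1 being the deeper in both conditions. All 11 markers of pre-T cells were above 3 counts in every library, with a summed level of 6221 to 6932 CPM (a library's counts divided by its total and its TMM normalization factor, as is usual for count tables). The pre-T cell sum covers changes in opposite directions, by edgeR's quasi-likelihood test at an adjusted p-value under 0.05. Ptcra, Notch1, Cd3g and Rag2 were higher after washout (log2 fold changes of 2.37, 1.14, 0.86 and 0.64). Gata3, Dntt and Tcf7 were lower (-1.67, -1.62 and -0.87), and the other markers passed in neither direction. Of 5 known Notch target genes, the summed level was 106 and 114 CPM in the GSI libraries and 691 and 917 CPM in the washout libraries. The B cell markers stayed at 3 counts or fewer in at least 1 library for 5 of 5 genes, and Lyz2 and Elane were at 0 throughout. The summed level of the 5 myeloid markers was 49.1 and 38.2 CPM under GSI and 5.49 and 4.91 CPM after washout, nearly all of it from the integrin gene Itgam, and its part in the results below was not tested. In bulk RNA, fewer cells of a type and less RNA per cell cannot be told apart.

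Most respiratory chain members were upregulated upon washout. Of the 93 members, 89 had enough counts to be tested, and 68 of these (76.4%) were higher after washout at an adjusted p-value under 0.05 by edgeR's quasi-likelihood test, against 27.0% of all 12266 genes tested. Cox6a2, Cox7a2l and Ndufaf3 were lower, against 25.4% of all genes, and 18 members passed in neither direction. The shifts were moderate in size. With a log2 fold change beyond 1 or -1 required as well, which are the study's criteria, 10 members were upregulated (7.74% of all genes), among them the scarcely counted Ndufa4l2, and 1 was downregulated (11.7% of all genes). The count of 10 became 4 when libraries were scaled to their total count alone and 5 with offsets for GC content and gene length. Ndufa12, Ndufa4l2, Atp5g1 and Ndufaf4 remained in both, and Ndufab1 with the offsets only. Atp5b, Ndufa5, Uqcrq and Ndufa4 fell below the fold threshold in both, though still higher at the adjusted p-value. The same held for Ndufaf6 with total-count scaling, and it had no offsets. The median log2 fold change was 0.59 over the tested members and -0.01 over all genes tested, or 0.39 and -0.21 with scaling to the total count alone. Both washout libraries lay above both GSI libraries in 77 members (38.2% of all genes) and below them in 6 (39.1% of all genes), and the libraries overlapped in the other 6.

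**Figure D1:**
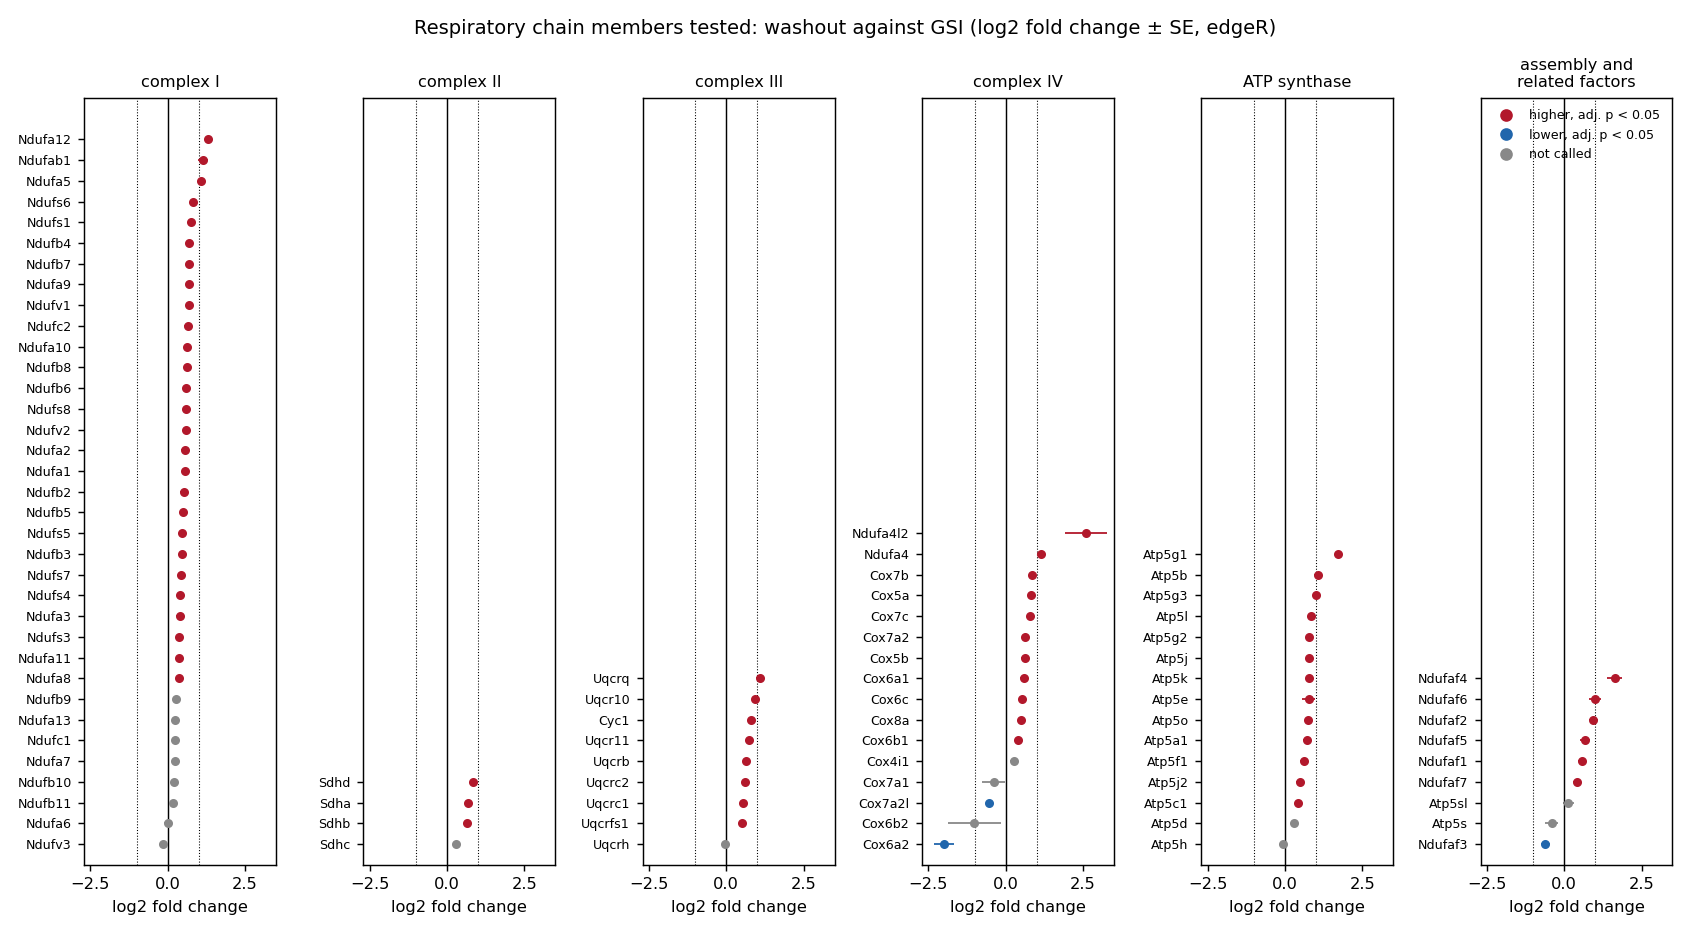
Log2 fold change (x axis) of 88 of the 89 tested members, washout against GSI, with bars of ± 1 standard error from edgeR, in 1 panel per complex. Red points were higher and blue points lower at an adjusted p-value under 0.05, grey points passed in neither direction, and dotted lines mark -1 and 1. Points lie to the right of 0 for 78 members, and Cox6a2 (-2.00) and Ndufa4l2 (2.60) lie farthest out.

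**Figure D2:**
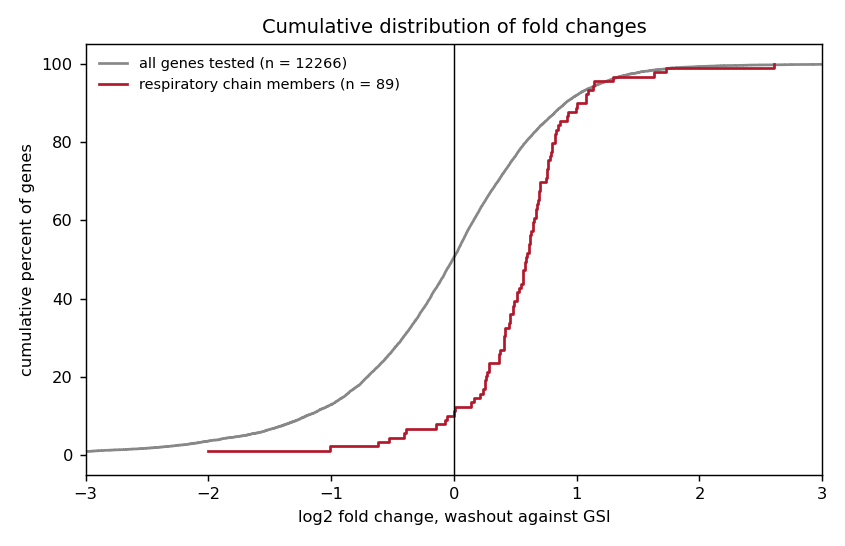
Cumulative percent of genes (y axis) at or below each log2 fold change (x axis), for all 12266 genes tested in grey and the 89 respiratory chain members in red. The red curve runs to the right of the grey one over most of its length, with medians of 0.59 and -0.01. The axis stops at -3 and 3, so genes beyond are not drawn.

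Added up, the members made up 0.992% and 0.971% of all counts in the GSI libraries and 1.29% and 1.32% in the washout libraries. On the CPM scale the sum was 9197 and 9128 in GSI and 13821 and 14173 upon washout, a ratio of 1.53. The sum was thus higher in both washout libraries, and the replicates lay far closer to each other than the conditions did. With 2 libraries against 2 the exact permutation test (two-sided) cannot give a p below 0.333, which is the value reached here and in each complex. By complex the ratio of summed levels ran from 1.35 in complex IV and 1.36 in complex I, through 1.48 in complex III and 1.58 in complex II, to 1.73 in ATP synthase. With scaling to the total count alone these ratios were 1.17, 1.19, 1.29, 1.37 and 1.51 in the same order, and 1.33 over all members. Differences between complexes were not tested. Such sums lean on the most abundant genes, above all Atp5b in ATP synthase. Atp5b alone gave 1096 and 1131 of the 3505 and 3519 CPM of ATP synthase in GSI. Upon washout it gave 2318 and 2387 of 6028 and 6144 CPM.

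**Figure D3:**
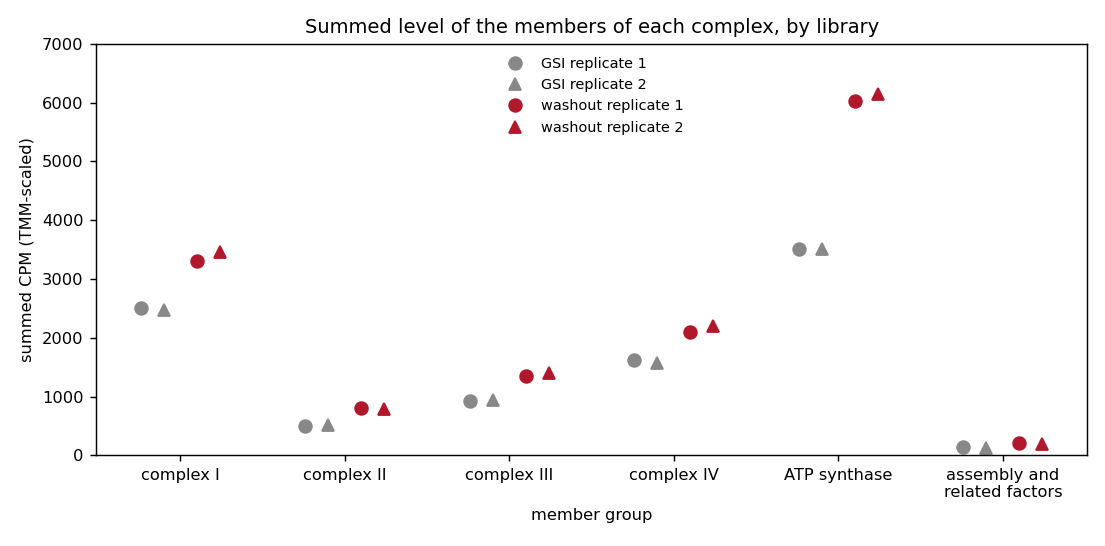
Summed CPM (y axis, from 0) of the members of each complex (x axis), with 1 point per library, grey for GSI and red for washout, circles for replicate 1 and triangles for replicate 2. In each of the 6 groups both washout points lie above both GSI points, most visibly for ATP synthase, at 6028 and 6144 against 3505 and 3519.

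Of the 15 members of ATP synthase, 13 were higher, 2 passed in neither direction and none fell. Their median log2 fold change of 0.77 was the highest of any complex, but with offsets for GC content and length it was 0.63, below the 0.68 of complex III. In the F1 part, which carries out catalysis and is counted here with its central stalk, 4 of 5 subunits rose. Atp5b encodes the catalytic β subunit and was the most highly expressed member, also per kilobase of transcript (581 CPM per kilobase in GSI). Its level was 1096 and 1131 CPM in the GSI libraries and 2318 and 2387 CPM in the washout libraries. Both washout values were about double both GSI values, with a log2 fold change of 1.08 ± 0.13 (SE) and an adjusted p of 0.00113. Atp5b shares its strand with an annotated overlap of Baz2a, whose own counts moved the other way, with a log2 fold change of -0.81. Atp5a1, the α subunit, went from 910.1 and 903.9 CPM to 1458 and 1488 CPM. The groups did not overlap, and the log2 fold change was 0.70 ± 0.12 with an adjusted p of 0.00400. Atp5d, the δ subunit of F1, was at 180 and 169 CPM under GSI and 200.3 and 226 CPM after washout. Its log2 fold change of 0.29 ± 0.11 missed the threshold with an adjusted p of 0.0592. Among the 7 subunits of the peripheral stalk and membrane part, 6 rose, with a median of 0.76. The exception was Atp5h, subunit d of the peripheral stalk, at 170 and 157 CPM under GSI and 155 and 156 CPM after washout (log2 fold change -0.07 ± 0.09, adjusted p = 0.542). With offsets for GC content and length it was called lower, at -0.32 with an adjusted p of 0.0104. Coding sequence of Atp5h occurs 4 more times in the mm9 genome, so its reads could be placed elsewhere.

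The rotating c ring of ATP synthase is built from a single protein, subunit c, which 3 nuclear genes encode with different import sequences, and all 3 rose. Atp5g1 (mm9 chr11:95930166-95936984) had the largest rise of any ATP synthase member. It was at 24.2 and 27.1 CPM under GSI and at 82.5 and 86.4 CPM after washout. Both washout values were over 3 times both GSI values (log2 fold change 1.72 ± 0.11, adjusted p = 0.000305). Atp5g2 (mm9 chr15:102493299-102501478) was at 71.2 and 71.0 CPM under GSI and 127 and 119 CPM after washout (0.79 ± 0.09, adjusted p = 0.00102). Atp5g3 (mm9 chr2:73746504-73749383) was the most abundant of the 3, at 152 and 151 CPM under GSI and 318 and 287 CPM after washout (0.996 ± 0.101, adjusted p = 0.000711), and stood just under the fold threshold of 1. The order of levels, with Atp5g3 first and Atp5g1 last, held in all 4 libraries, also per kilobase of transcript. Atp5g1 took up 9.76% (95% exact interval 9.12 to 10.4) and 10.9% (9.89 to 11.9) of the counts of the 3 genes in the GSI libraries, and 15.6% (15.1 to 16.2) and 17.6% (16.7 to 18.5) in the washout libraries. Its share was higher in both washout libraries, while that of Atp5g2 was 28.8% and 28.5% in GSI and 24.1% and 24.1% upon washout. These intervals cover counting error only. The genome holds 1 further copy of the coding sequence of Atp5g1 and 3 of that of Atp5g2, at 95% identity over at least 80% of its length, and none of Atp5g3.

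**Figure D4:**
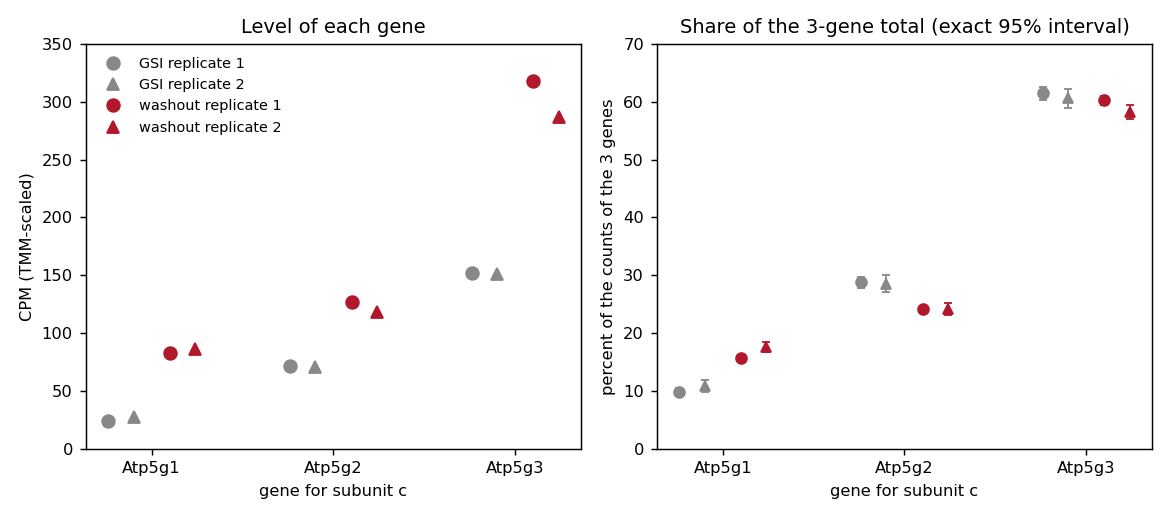
Left, CPM (y axis, from 0) of the genes for subunit c (x axis), with 1 point per library, grey for GSI and red for washout. Right, the percent of the summed counts of the 3 genes that each gene holds in each library, with exact 95% intervals for counting error. Every washout point lies above the GSI points of the same gene on the left, and on the right the share of Atp5g1 goes from 9.76% and 10.9% to 15.6% and 17.6%.

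The sequences upstream of these genes are shown because they are the genes for an identical protein with unequal rises, together with Ndufaf4, the member past both thresholds with the next largest rise among well-counted genes, and Cox7a2l, an abundant member that fell. Each run gives the 250 bases before the RefSeq transcription start (build GRCm38.p6, a different build from that of the counts), 5′ to 3′ on the strand of the gene. Capitals mark matches to letters searched on both strands, which were GCATGCGC for NRF1, CCGGAAG for ETS factors such as GABPA, AAGATGGC for YY1, CACGTG for the E-box that MYC is known to bind, and TGGGAA for RBPJ, the DNA-binding partner of Notch.

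Atp5g1, chr11:96075632-96075881, minus strand: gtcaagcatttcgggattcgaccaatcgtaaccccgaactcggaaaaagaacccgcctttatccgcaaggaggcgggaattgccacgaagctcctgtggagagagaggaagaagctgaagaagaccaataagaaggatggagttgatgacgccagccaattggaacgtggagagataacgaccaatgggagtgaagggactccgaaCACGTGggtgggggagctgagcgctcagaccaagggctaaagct
Atp5g2, chr15:102671048-102671297, minus strand: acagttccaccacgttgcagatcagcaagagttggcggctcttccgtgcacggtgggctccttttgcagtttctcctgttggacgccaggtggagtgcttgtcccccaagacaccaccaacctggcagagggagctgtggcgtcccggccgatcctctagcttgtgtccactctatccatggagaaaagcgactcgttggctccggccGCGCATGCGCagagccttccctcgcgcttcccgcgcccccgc
Atp5g3, chr2:73911327-73911576, minus strand: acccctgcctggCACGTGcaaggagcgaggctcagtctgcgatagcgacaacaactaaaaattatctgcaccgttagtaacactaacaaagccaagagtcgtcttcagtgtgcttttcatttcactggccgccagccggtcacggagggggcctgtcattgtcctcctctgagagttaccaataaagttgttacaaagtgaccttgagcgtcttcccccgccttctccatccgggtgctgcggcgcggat
Ndufaf4, chr4:24897833-24898082, plus strand: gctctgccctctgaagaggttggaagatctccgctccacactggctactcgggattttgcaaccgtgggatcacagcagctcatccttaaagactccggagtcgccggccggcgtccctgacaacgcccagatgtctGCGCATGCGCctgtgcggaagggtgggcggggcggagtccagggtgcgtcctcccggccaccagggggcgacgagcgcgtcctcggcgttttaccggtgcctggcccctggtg
Cox7a2l, chr17:83514334-83514583, minus strand: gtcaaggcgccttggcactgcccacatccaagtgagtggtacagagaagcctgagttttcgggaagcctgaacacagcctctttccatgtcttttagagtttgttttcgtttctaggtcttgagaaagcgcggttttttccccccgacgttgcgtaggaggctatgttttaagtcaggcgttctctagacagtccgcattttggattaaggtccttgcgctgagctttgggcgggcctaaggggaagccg

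The E-box letters thus begin 44 bases before the start of Atp5g1 and 238 bases before that of Atp5g3, and the NRF1 letters lie within 42 bases of the start of Atp5g2. In Ndufaf4 the NRF1 letters begin 113 bases upstream, and none of the 5 motifs was found in the run of Cox7a2l. These 5 runs do not stand for all members. No motif was found for Ndufa12, Ndufab1 and Ndufa4, with log2 fold changes of 1.29, 1.14 and 1.14, nor for Ndufaf3, which fell (-0.61). Atp5b and Ndufa5 (1.08 each) have the RBPJ letters. Ndufa6 (-0.0008) has the NRF1 letters and Ndufa7 (0.23) the E-box, and neither gene was called. Whether motifs go with the shifts was not tested. RefSeq promoter windows of 300 bases (250 before and 50 after the start) were available for 76 members, 3 of them matched through an older symbol, and gave 82 windows. The NRF1 letters were in 14.6% of the members' windows, in 2.71% of all mouse windows and in 5.34% of windows of the genes tested here. For YY1 these shares were 14.6%, 2.75% and 4.58%, for ETS 20.7%, 8.86% and 18.3%, for the E-box 11.0%, 7.15% and 9.93%, and for RBPJ 19.5%, 25.6% and 22.9%. A match of letters is a description of the sequence and not a measured binding site.

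Complex I was the largest group. Of its 36 members, 27 were higher, none was lower and 9 passed in neither direction, and the median log2 fold change was 0.50, with a range of -0.15 to 1.29. Of the 7 core subunits, which carry the flavin and iron-sulfur centers on the path from NADH to coenzyme Q, 6 rose with a median of 0.58. Ndufs1, a core subunit of the NADH-oxidizing module, was at 113 and 105 CPM under GSI and 193 and 175 CPM after washout, with no overlap between the conditions (0.75 ± 0.10, adjusted p = 0.00163).

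Among the 29 accessory subunits of complex I, 21 rose, and the 3 that passed both thresholds were all accessory. Ndufa12, an accessory subunit of the NADH-oxidizing arm, was at 36.7 and 36.9 CPM under GSI and 90.4 and 90.0 CPM after washout (1.29 ± 0.09, adjusted p = 0.000343). Ndufab1, the mitochondrial acyl carrier protein that also serves fatty acid synthesis, was a low-abundance member at 9.78 and 11.5 CPM under GSI and 25.1 and 21.1 CPM after washout (1.14 ± 0.16, adjusted p = 0.00208). Ndufa5 was at 25.4 and 29.0 CPM under GSI and 56.9 and 57.6 CPM after washout (1.08 ± 0.11, adjusted p = 0.000724). In each of these genes the lowest washout library was above the highest GSI library, and Ndufa12 and Ndufab1 have 1 and 2 further copies of coding sequence in the genome. At the other end, Ndufv3 was at 89.3 and 91.9 CPM under GSI and 74.6 and 89.3 CPM after washout (-0.15 ± 0.11, adjusted p = 0.316), and Ndufa6 was at 122 and 114 CPM against 104 and 132 CPM (adjusted p = 0.997). In this fit neither gene showed a shift beyond the spread of its libraries. Ndufv3 was called lower with scaling to the total count alone. Ndufa6 was called lower when the offsets for GC content and length were combined with a replicate block. Ndufb9, with the highest level per kilobase of complex I in GSI (253 CPM per kilobase), had 169 and 160 CPM under GSI and 189 and 207 CPM after washout (0.27 ± 0.10, adjusted p = 0.0601). The 10 Ndufb subunits, most of which sit in the proton-pumping membrane arm, had a median of 0.50, with 7 higher and a range of 0.17 to 0.70.

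Complex II, which also works in the tricarboxylic acid cycle and is encoded entirely in the nucleus, rose in 3 of its 4 subunits, with a median of 0.66. Sdha, the flavoprotein that oxidizes succinate, was at 219 and 225 CPM under GSI and 361 and 349 CPM after washout (0.68 ± 0.10, adjusted p = 0.00201). Sdhb, the iron-sulfur subunit, was at 108 and 110.2 CPM under GSI and 168 and 174 CPM after washout (0.65 ± 0.09, adjusted p = 0.00180). The catalytic pair thus differed between conditions by similar amounts. Of the membrane anchors, Sdhd was at 98.2 and 104 CPM under GSI and 187 and 176 CPM after washout (0.85 ± 0.09, adjusted p = 0.000905). Sdhc was at 74.6 and 69.2 CPM under GSI and 91.2 and 83.7 CPM after washout (0.28 ± 0.10). Its libraries did not overlap, but its adjusted p of 0.0506 fell just outside the threshold. Per kilobase of transcript the 4 subunits had similar levels, from 76.6 (Sdha) to 95.4 (Sdhb) CPM per kilobase in GSI and from 107 (Sdhc) to 150 (Sdhb) upon washout.

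In complex III, 8 of 9 members rose and the median was 0.65. Cyc1, the cytochrome c1 subunit that reduces cytochrome c, was at 117 and 129 CPM under GSI and 215 and 214 CPM after washout (0.80 ± 0.10, adjusted p = 0.00123). Uqcrfs1, the Rieske iron-sulfur protein, was at 102 and 107 CPM under GSI and 151 and 147 CPM after washout (0.51 ± 0.09, adjusted p = 0.00431). Both catalytic subunits encoded in the nucleus were therefore higher in each washout library. The core proteins Uqcrc1 and Uqcrc2 rose by 0.55 ± 0.09 and 0.61 ± 0.09 on the log2 scale. Among the small subunits, Uqcrq was at 33.2 and 36.7 CPM under GSI and 68.9 and 80.6 CPM after washout (1.09 ± 0.12, adjusted p = 0.000864), and Uqcr10 at 58.7 and 58.2 CPM against 103 and 119 CPM (0.92 ± 0.10, adjusted p = 0.000979). Uqcrh, the hinge protein next to cytochrome c1, stood apart, at 187 and 176 CPM under GSI and 173 and 177 CPM after washout. Its conditions overlapped (-0.05 ± 0.09, adjusted p = 0.655, and -0.29 with an adjusted p of 0.0145 with the offsets for GC content and length), and it had the highest level per kilobase of complex III in GSI (383 CPM per kilobase).

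Complex IV was the most mixed group. Of its 20 members, 16 were tested, 11 of which were higher and 2 lower, with a median of 0.56 and a range of -2.00 to 2.60. Of 12 members used in most tissues, 10 rose and 1 fell, namely Cox7a2l, a factor that joins complexes III and IV. Of 8 isoforms known for particular tissues or conditions, 4 were tested, 1 of which rose and 1 fell. The isoform calls rest on few counts, and the difference between the classes was not tested.

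Among the common subunits of complex IV, Ndufa4, a subunit that was long assigned to complex I, rose the most. It was at 66.0 and 76.0 CPM under GSI and 150.04 and 162 CPM after washout (1.14 ± 0.11, adjusted p = 0.000612). Cox7b was at 73.4 and 73.4 CPM under GSI and 138 and 129 CPM after washout (0.86 ± 0.09, adjusted p = 0.000785), and Cox5a at 84.6 and 85.8 CPM against 148 and 154 CPM (0.82 ± 0.09, adjusted p = 0.000815). The conditions were clearly apart in all 3 genes. Cox6a1, Cox6c, Cox7a2 and Cox8a rose by 0.58, 0.53, 0.62 and 0.49 on the log2 scale, with standard errors of 0.09 to 0.10. Cox6b1 was at 131 and 130 CPM under GSI and 174 and 171 CPM after washout (0.41 ± 0.09, adjusted p = 0.00979). This call was lost with scaling to the total count (adjusted p = 0.0869) and with the offsets for GC content and length. It was also lost when either GSI library was left out. Cox4i1, an early-assembling subunit with the highest level per kilobase of complex IV, was at 378 and 348 CPM under GSI and 422 and 447 CPM after washout (0.26 ± 0.11, adjusted p = 0.0836).

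Cox7a2l, a factor that joins complexes III and IV into supercomplexes, fell upon washout. It was at 254 and 225 CPM under GSI and 157 and 176 CPM after washout (mm9 chr17:83901259-83913673). Both washout libraries lay below both GSI libraries, and the log2 fold change was -0.53 ± 0.11 with an adjusted p of 0.00917. Its nearest relative among the common subunits, Cox7a2, which is built into complex IV itself, went the other way, from 121 and 119 CPM to 181 and 190.1 CPM (0.62 ± 0.09, adjusted p = 0.00227). Without GSI replicate 1, the library with the highest level, the log2 fold change of Cox7a2l was -0.45 and the adjusted p 0.0643. Coding sequence of Cox7a2l occurs 1 more time in the genome.

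The isoforms of complex IV known mainly from muscle, testis or lung were all scarce. Cox6a2, the heart and muscle form of subunit 6a (mm9 chr7:135348950-135349880), was at 7.53 and 6.23 CPM under GSI and 1.32 and 2.31 CPM after washout. The fall of -2.00 ± 0.33 on the log2 scale (adjusted p = 0.00346) made it the only member downregulated past both thresholds. The gene overlaps Itgad on the opposite strand, which was itself at 0.53 and 0.96 CPM under GSI and 0.26 and 0.30 CPM after washout, and the strand setting of the counting is not given in the sources used here. Ndufa4l2, the relative of Ndufa4 known to be induced by hypoxia (mm9 chr10:126951995-126954208), had 3 and 5 counts under GSI and 28 and 21 counts after washout. Its log2 fold change of 2.60 ± 0.69 (adjusted p = 0.0201) rests on the washout libraries, through which alone it had enough counts to be tested, so that it could enter only as a rise. It is left out when at least 10 counts are required in every library, and without GSI replicate 1 its log2 fold change was 1.69 with an adjusted p of 0.143. Ndufa4l2 lies across from Shmt2 on the other strand, which had 3837 and 1885 counts under GSI and 18516 and 7933 counts after washout, so that reads of both genes cannot be told apart if strand was not used. Cox6b2, a testis form, was at 0.59 and 1.64 CPM under GSI and 0.21 and 1.04 CPM after washout (-1.01 ± 0.85, adjusted p = 0.356), and Cox7a1, a muscle form, at 0.91 and 1.23 CPM against 0.73 and 0.89 CPM (-0.39 ± 0.38, adjusted p = 0.423). Cox4i2, a lung form, had 1 and 0 counts under GSI and 3 and 1 upon washout, Cox8b had 3 and 4 against 2 and 1, and Cox7b2 and Cox8c had 0 in every library. These 4 genes were not tested, and no change in them was detectable at this depth.

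Of the 9 assembly and related factors with member symbols, which help to build complex I or act beside ATP synthase, 6 rose, 1 fell and 2 passed in neither direction. Their median log2 fold change was 0.57, and 0.20 with offsets for GC content and length, which could be had for 6 of them. The 2 medians cover different genes. Those without offsets, Ndufaf5 (0.67), Ndufaf6 (1.01) and Ndufaf7 (0.41), all rose in the main fit. Ndufaf4, an early assembly factor of complex I (mm9 chr4:24825230-24832148), was at 22.1 and 15.6 CPM under GSI and 70.5 and 46.8 CPM after washout. Its replicates differed more than those of most members, yet the lowest washout library was over 2 times the highest GSI library (1.63 ± 0.24, adjusted p = 0.00252). Ndufaf6 was at 4.44 and 5.21 CPM under GSI and 10.0 and 9.15 CPM after washout (1.01 ± 0.20, adjusted p = 0.00695). Ndufaf3, a partner of Ndufaf4 in the same early intermediate (mm9 chr9:108468197-108469673), fell from 22.7 and 19.2 CPM to 13.1 and 14.4 CPM (-0.61 ± 0.15, adjusted p = 0.0149). These partners thus moved in opposite directions, each without overlap between its libraries. Without GSI replicate 1 the log2 fold change of Ndufaf3 was -0.49 and the adjusted p 0.108. Ndufaf1 was at 21.5 and 19.9 CPM under GSI and 31.7 and 29.7 CPM after washout (0.57 ± 0.12, adjusted p = 0.00830, and 0.0505 without GSI replicate 2), and Atp5s at 7.34 and 6.23 CPM against 5.52 and 4.69 CPM (-0.41 ± 0.22, adjusted p = 0.160, and -0.67 with an adjusted p of 0.0272 with the offsets for GC content and length).

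Other genes of respiration, taken from lists by role, rose more often than they fell, and are to be read beside the 27.0% of all genes that rose and the 25.4% that fell. Of 8 further assembly factors of complex I that were tested, 5 rose and Lyrm2 fell (-0.79 ± 0.15, adjusted p = 0.00677), the largest rise being that of Foxred1 (0.80 ± 0.13, adjusted p = 0.00313). None of the 4 assembly factors of complex II passed, with changes from -0.30 (Sdhaf4) to 0.41 (Sdhaf3). For complex III 3 of 6 rose, led by Uqcc2 (0.73 ± 0.11), while Ttc19 had -0.42 ± 0.18 (adjusted p = 0.101). For complex IV 10 of 22 rose and 1 fell. Lrpprc, which stabilizes mitochondrial messenger RNAs, was at 91.6 and 100.2 CPM under GSI and 252 and 244 CPM after washout (1.37 ± 0.10, adjusted p = 0.000345), whereas Surf1 changed by -0.45 ± 0.11 (adjusted p = 0.0176), a call lost in 3 of the 4 fits that leave out a library. For ATP synthase 3 of 4 rose, led by Atpaf2 (0.67 ± 0.09), and its inhibitor Atpif1 had -0.26 ± 0.09 (adjusted p = 0.0547).

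The list of genes for cytochrome c and coenzyme Q synthesis had the highest median, at 0.75, with 9 of 14 genes higher and 1 lower. Cytochrome c itself (Cycs, singled out after its values were seen) was at 33.2 and 28.4 CPM under GSI and 88.2 and 61.1 CPM after washout (1.28 ± 0.19, adjusted p = 0.00243). Pdss1, which makes the side chain of coenzyme Q, rose by 1.43 ± 0.19. Adck3, an atypical kinase needed for coenzyme Q synthesis, was the opposite extreme, at 23.6 and 18.8 CPM under GSI and 5.58 and 4.46 CPM after washout (-2.06 ± 0.20, adjusted p = 0.000606). In the tricarboxylic acid cycle and pyruvate dehydrogenase, which feed electrons into the chain, 12 of 17 genes rose and none fell, from 0.03 ± 0.09 (Pdha1) to 1.12 ± 0.10 (Suclg2), with a median of 0.55.

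Of the regulators known to act on respiratory genes, 13 of 14 were tested and 7 rose, while none fell. The median was 0.55. Pprc1, a coactivator of the PGC-1 family that responds to growth signals, was at 32.3 and 33.4 CPM under GSI and 93.1 and 92.4 CPM after washout (1.498 ± 0.091, adjusted p = 0.000305). Ppargc1a, the founding member of that family, had 0 counts in every library. Esrra was at 42.2 and 50.1 CPM under GSI and 37.1 and 39.3 CPM after washout (-0.27 ± 0.12, adjusted p = 0.107). Singled out after their values were seen were Tfam, the packaging and transcription factor of mitochondrial DNA (1.03 ± 0.10), Myc (0.997 ± 0.115), Nrf1 (0.62 ± 0.09) and Gabpa (0.46 ± 0.12), all of which rose. Passing in neither direction, besides Esrra, were Tfb2m (0.55 ± 0.20, adjusted p = 0.0587), Polrmt (0.21 ± 0.10, 0.126) and Yy1 (0.22 ± 0.12, 0.176). The same held for Gabpb1 (0.18 ± 0.10, 0.183) and Creb1 (-0.22 ± 0.11, 0.157). Mitochondrially encoded subunits were not analysed here, as the count table has no row for any of the 13.

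**Figure D5:**
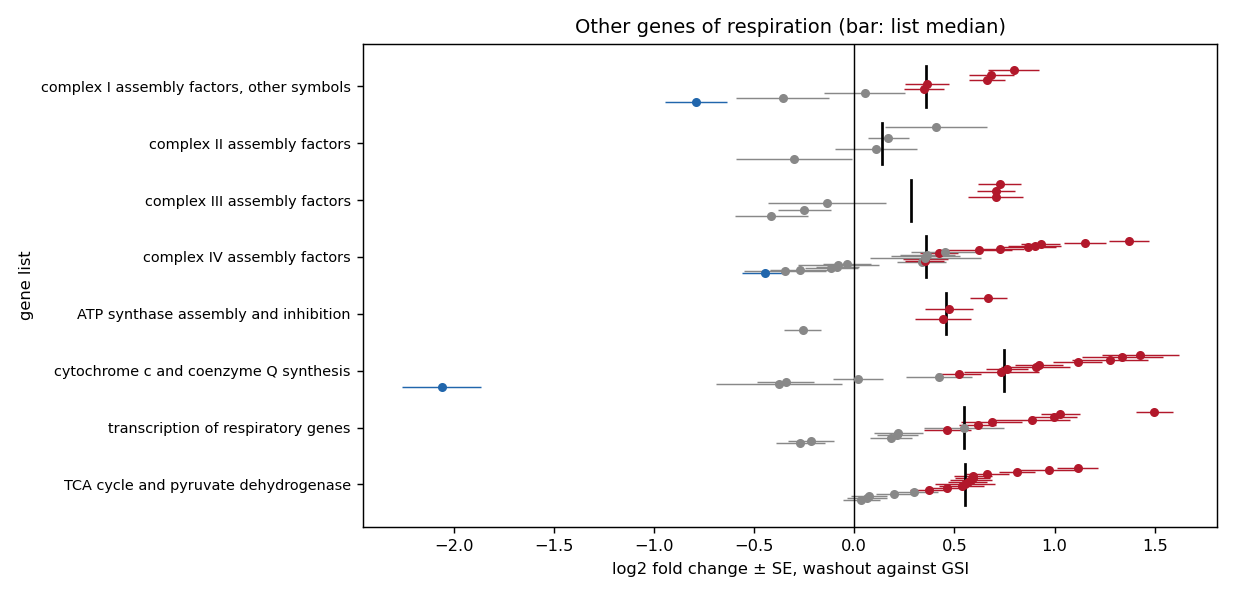
Log2 fold change ± 1 standard error (x axis), washout against GSI, of other genes of respiration, in 1 row per list (y axis), with red, blue and grey for higher, lower and neither at an adjusted p-value under 0.05. The black bar is the median of the list, which is above 0 in all 8 lists and highest, at 0.75, for cytochrome c and coenzyme Q synthesis. Adck3 is the blue point at -2.06.

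The median exon length of the members was 1243 bases, against 3567 bases over all genes tested, and the median exon GC content was 50.5% against 50.3%. The members were the more highly expressed set, with a median of the mean log2 level of 6.43 against 5.09 over all genes. The part of level in the shifts was not tested. Of the 90 members that could be searched, 22 have at least 1 further copy of their coding sequence in the mm9 genome, from 1 copy in genes such as Cox6c to 8 for Atp5l, and 1 alignment was reported per read, so that a part of their reads could be placed on a copy. Another gene overlaps 21 members on the opposite strand and 7 on the same strand.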

How the data were processed

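The RNA-Seq data are 4 libraries of Beko cells, 2 per condition, grouped by their labels. Total RNA was made into stranded, ribosomal RNA-depleted libraries. The authors used trimGalore for trimming and HISAT2 2.2.1 for alignment to mm9, reporting 1 alignment per read and allowing introns of up to 3000 bases (51 members have a longer one), and counted reads per gene with summarizeOverlaps. The submitters' notes also name DESeq2 1.24.0. Raw counts per gene were deposited, without normalization. Neither the strand setting nor the overlap mode is given in the sources used here.

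The comparison used edgeR 4.0.16 under R 4.3.3 (filterByExpr, TMM, quasi-likelihood test without covariates, Benjamini-Hochberg adjustment over all 12266 genes tested). TMM factors were 1.08, 1.06, 0.936 and 0.930, and the biological coefficient of variation was 0.121. Log2 CPM correlated at 0.990 and 0.988 between replicates and at 0.935 to 0.947 between conditions. The chi-square between replicates was 18.3 and 29.4 per degree of freedom, above sampling noise. Standard errors are log2 fold changes over the root of the F statistic. Positions, exon lengths, GC content and gene overlaps came from GENCODE vM1 on mm9 (89 of 93 members matched), and further copies from BLAST 2.17.0 (coding sequence of at least 150 bases, 95% identity, 80% coverage).

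The members and lists were chosen with earlier results of these data known. Named were complex II, Cyc1, members past both thresholds or lower, the extremes and most abundant members of each complex, isoform groups and the extremes of each other list. One member chosen by this rule is counted in the totals but not reported here. Ndufs1, Uqcr10, Uqcrc1, Uqcrc2, Uqcrfs1, Cox5a, Cox6c and Ndufaf1, where not named by that rule, were added for their roles after their values were seen. Sdf2l1 had been put among the complex I assembly factors in error and was removed after its value was seen (log2 fold change 0.42, adjusted p = 0.0132). The scripts were tested on simulated data. Alternatives were RLE factors, total-count scaling, DESeq2 1.42.0, filters, a replicate block, GC content and length offsets, thinning, the adjusted p-value alone and leaving out each library.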

Additional observations from a re-analysis of the deposited data

How the results depend on the processing

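Between 51 and 76 members were higher at an adjusted p-value under 0.05 across all alternatives, and no called member changed direction in any. Scaling to the total count moved the median of all genes tested from -0.01 to -0.21, with 587 genes up and 1961 down past both thresholds in place of 950 and 1437, and 18.9% of all genes higher and 34.6% lower at the adjusted p-value alone. Members then numbered 54 higher and 4 lower, with 4 up past both thresholds. The medians under total-count scaling were 0.39 for the members and 0.30, 0.46, 0.45, 0.36, 0.57 and 0.37 for complexes I, II, III and IV, ATP synthase and the assembly factors. Offsets for GC content and length, available for 89.4% of the genes and 85 of the 89 members, gave medians of 0.43, 0.34, 0.59, 0.68, 0.41, 0.63 and 0.20 for the members, complexes I, II, III and IV, ATP synthase and the 6 remaining assembly factors, with 5 members up past both thresholds and 6 lower at the adjusted p-value alone, Uqcrh, Atp5h and Atp5s being added. The members' median was then 0.45 above that of all genes. The adjusted p-value alone gave 3315 and 3120 genes and 68 and 3 members. Complex II had a median of 0.70 without a filter and 0.63 with at least 10 counts in every library, where complex III had 0.61.

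The labels do not say whether same-numbered libraries were prepared together. With 2 pairs the deviations of same-numbered libraries correlated at 0.497, and the labels name no common batch. With the replicate block 76 members were higher and 5 lower, 2 of them past both thresholds. The added falls were Cox6b2 (adjusted p = 0.0461) and Atp5s (0.0479). With the block and the GC content and length offsets together, 5 were up and 2 down past both thresholds, 8 were lower at the adjusted p-value alone, and the medians were 0.43, 0.34, 0.59, 0.68, 0.41, 0.63 and 0.19 in the order above. Cox4i1 (0.0165) and Sdhc (0.00304) passed as higher with the block and Sdhc, by a small margin, with RLE factors (0.0480).

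Fits that leave out a library assume that the lone library varies like the other condition. Members up past both thresholds then numbered 7 to 12, down 1 to 2, higher 51 to 68 and lower 1 to 4. Without GSI replicate 1 only Cox6a2 stayed lower. Cox6b2 was the added fall past both thresholds without washout replicate 2. All genes past both thresholds numbered 881 to 1064 up and 1118 to 1375 down. Medians ran from 0.56 to 0.60 for members, 0.62 to 0.70 for complex III and 0.51 to 0.59 for complex IV. With total-count scaling 86 of the 89 members kept their direction, and those that did not were not called. Directions of named genes changed as follows. Ndufa6 had 0.0015 with RLE factors, 0.016 in DESeq2, 0.035 without a filter and 0.05 and 0.17 without GSI or washout replicate 1. Pdha1 had -0.16 with total-count scaling, -0.0038 with at least 10 counts and -0.19 with the offsets, with or without the block. Esrra had 0.012 with the offsets and block, and Cox6b2 0.015 without washout replicate 1 and -2.29 without washout replicate 2. The cause of these changes was not tested. Depth limits the scarce isoforms of complex IV, where 3 counts equal 0.0881 to 0.223 CPM.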

Other observations

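Across the 85 tested members with an annotated structure, the log2 fold change had a Spearman correlation of -0.24 with exon GC content, against -0.17 over all genes tested with these features. With exon length it was 0.12 over the members and -0.12 over all genes, and with the mean level -0.01 over the 89 members and 0.32 over all genes. These are descriptions across genes of the same 4 libraries, and genes are not independent replicates.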
